A study of Homo sapiens with 12 samples.

Results

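The set comprised 10 human genes that carry, make or destroy retinoids, namely the carriers and uptake genes RBP4, STRA6 and CRABP2, the oxidoreductase genes RDH12 and DHRS3, the retinaldehyde dehydrogenase genes ALDH1A2 and ALDH1A3, and the breakdown genes CYP26A1, CYP26B1 and CYP26C1. Members were found by gene name in the deposited peak annotations, first among peaks whose centre lay within 10 kb of a transcription start and then at any distance. Within 10 kb, 9 of the 10 had a consensus interval, among 18981 genes that had one. ALDH1A3 had no peak at any distance in any of the 4 libraries.

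The libraries profiled H3K27me3, a repressive histone mark placed by EZH2 within Polycomb repressive complex 2, by chromatin immunoprecipitation and sequencing in T24, an established human bladder cancer line. The vehicle cells received DMSO. The other 3 libraries came from cells given GSK-126 (an EZH2 inhibitor) at 5 µM, fenretinide (a synthetic retinoid) at 5 µM, or the combination of 5 µM GSK-126 and 5 µM fenretinide, each for 72 h. Each condition had 1 library of this 1 line, which leaves all differences without a replicate check, and the study's 4 input and 4 RNA libraries were not analysed here. The line's identity was not checked against expression markers.

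Retinol travels in blood bound to RBP4 and enters cells through the membrane receptor STRA6. Cells oxidise retinol to retinal reversibly, oxidise retinal irreversibly to retinoic acid with ALDH1A enzymes, and clear retinoic acid with CYP26 enzymes, while CRABP2 delivers it to nuclear receptors. Several of these genes, CYP26A1 above all, are known targets of the retinoic acid receptors, and many are silenced by Polycomb in cells that do not use them.

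The 4 libraries held 15812933 to 18928836 fragments in 273664 intervals, or 12.2 to 14.6 fragments per kb of interval. Values below are fragments in a gene's intervals, and a ratio is the gene's share of its library divided by its share of the other library, with a 95% exact Clopper-Pearson interval that covers counting error only and compares libraries, not conditions. A gene was called lower at a ratio of at most 0.5 and higher at a ratio of at least 2.0, where that interval excluded 1 and both libraries together held at least 50 fragments. For a single interval the minimum was 20 fragments. The labels name no spike-in, so a rise or fall is one of library share. Scaling to the intervals with the least signal (background scaling, defined with the processing) shifted every log2 ratio to vehicle, by -0.77 in the GSK-126 library, -0.13 under fenretinide and -0.81 in the combination.

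Promoter sequences are shown for 4 windows that lay wholly inside an H3K27me3 interval. The mark fell with all 3 treatments in the intervals at CYP26A1, at CYP26B1 and at an internal start of STRA6. At CYP26B1 it fell most with GSK-126, and the fenretinide ratio did not pass the rule. At ALDH1A2 no ratio passed the rule. Each window runs from 250 bases before to 50 bases after a transcript start, 5′ to 3′ in the gene's direction, and comes from RefSeq on GRCh38.p14. The deposited intervals use hg38 coordinates, the same build. Capitals mark the only direct repeat of receptor core motifs found by the search described after them.
CYP26A1, chr10:93073643-93073942, plus strand: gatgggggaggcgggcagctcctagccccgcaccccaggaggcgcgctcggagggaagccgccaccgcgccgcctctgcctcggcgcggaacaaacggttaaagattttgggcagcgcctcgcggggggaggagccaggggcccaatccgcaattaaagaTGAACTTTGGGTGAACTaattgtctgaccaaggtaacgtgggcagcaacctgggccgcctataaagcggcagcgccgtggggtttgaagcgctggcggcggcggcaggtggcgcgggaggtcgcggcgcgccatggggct
CYP26B1, chr2:72147813-72148112, minus strand: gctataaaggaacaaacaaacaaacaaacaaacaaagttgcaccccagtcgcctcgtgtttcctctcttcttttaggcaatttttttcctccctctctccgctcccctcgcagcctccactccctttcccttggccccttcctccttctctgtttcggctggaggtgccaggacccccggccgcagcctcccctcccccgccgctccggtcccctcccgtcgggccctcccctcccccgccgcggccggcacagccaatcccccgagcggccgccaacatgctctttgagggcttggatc
STRA6, chr15:74208005-74208304, minus strand: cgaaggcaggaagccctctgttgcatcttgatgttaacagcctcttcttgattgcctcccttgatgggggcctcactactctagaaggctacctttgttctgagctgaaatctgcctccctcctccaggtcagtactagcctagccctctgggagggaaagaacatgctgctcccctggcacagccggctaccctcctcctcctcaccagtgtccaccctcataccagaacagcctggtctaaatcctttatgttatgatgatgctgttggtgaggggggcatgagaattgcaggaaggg
ALDH1A2, chr15:58065662-58065961, minus strand: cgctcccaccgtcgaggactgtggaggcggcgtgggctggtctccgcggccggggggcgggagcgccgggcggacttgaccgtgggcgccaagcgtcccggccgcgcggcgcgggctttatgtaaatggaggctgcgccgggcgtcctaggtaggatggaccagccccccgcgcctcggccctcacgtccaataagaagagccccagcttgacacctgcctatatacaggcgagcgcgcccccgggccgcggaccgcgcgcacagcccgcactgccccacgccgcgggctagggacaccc

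The search covered the core motif AGGTCA, its variant AGTTCA, a further variant GGGTCA and the last variant GGTTCA on both strands, as direct repeats spaced by 1, 2 or 5 bases, with overlaps between repeats allowed. Repeats spaced by 5 occurred in 31 of 35116 promoter windows (0.0883%), repeats spaced by 1 in 46 (0.131%) and repeats spaced by 2 in 14 (0.0399%). At least 1 core motif alone occurred in 38.6% of windows. Of the members, CYP26A1 held a repeat spaced by 5, on the minus strand at positions -90 to -74 of its downstream annotated start (the start base is 0). Its other window, and those of the 8 other members with entries, held none of these repeats, and RDH12 had no entry. A match is a description of the letters, and its absence says only that these letters are not in the window. The observed over expected CpG ratio was 0.96 in the CYP26A1 window shown, 0.76 in CYP26B1, 1.00 in ALDH1A2 and 0.09 in the STRA6 window, against a median of 0.58 over all windows.

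In vehicle cells 7 of the 9 members with an interval carried more H3K27me3 per kb within 10 kb than the median gene, which had 13.3 fragments per kb (quartiles 8.79 and 18.9). CYP26B1 was highest at 23.9 fragments per kb, followed by ALDH1A2 at 21.7, RBP4 at 19.1, DHRS3 at 17.6, STRA6 at 17.4, CYP26A1 at 16.8 and CRABP2 at 14.1. CYP26C1 at 7.03 and RDH12 at 5.98 lay under the lower quartile. With GSK-126 the order of the set changed: ALDH1A2 (19.4) and RDH12 (15.9) were highest, and STRA6 (4.34), CYP26B1 (3.78) and CRABP2 (2.23) were lowest, against a median of 7.96 over all genes. These levels are not scaled to library size. Peaks named RDH12 or CYP26C1 were only in the GSK-126 and combination lists. Both genes thus entered the table through libraries in which they were high, and their rises against vehicle are partly fixed by that. The RDH12 interval itself also held 1 vehicle and 1 fenretinide peak, and LOC102723898 is named there too. CRABP2 was the reverse case, with peaks within 10 kb only in the vehicle and fenretinide lists, so its falls in the libraries with GSK-126 are partly fixed as well. CYP26B1 had no peak within 10 kb in the GSK-126 list, so its fall in that library is also partly fixed.

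**Figure D1:**
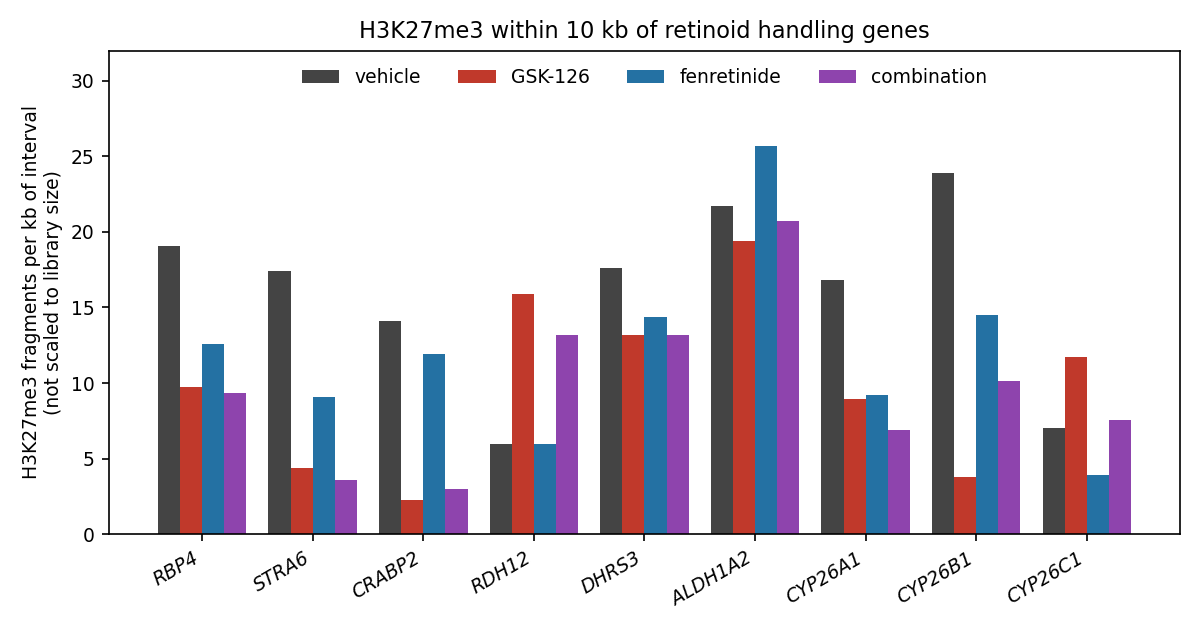
H3K27me3 fragments per kb of consensus interval (y axis, not scaled to library size) for the 9 members with an interval within 10 kb, with 1 bar per library. STRA6, CRABP2 and CYP26B1 are lowest with GSK-126 or the combination, RDH12 is higher in those 2 libraries than in vehicle (15.9 and 13.2 against 5.98), and ALDH1A2 stays between 19.4 and 25.7. The ALDH1A2 intervals counted here lie inside the gene, 32.1 to 68.6 kb downstream of its outermost RefSeq start.

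Counted as a set, the members moved in different directions. With GSK-126, 7 members passed the minimum of fragments; 1 was called higher (RDH12), where 11.5% of all genes tested were, and 1 lower (STRA6), where 41.4% were. Their median log2 ratio was -0.33 and that of all genes -0.79. With fenretinide, 7 passed the minimum; 0 were called higher (0.337% of all genes) and 2 lower (STRA6 and CYP26A1), against 1.5% of all genes. The median was -0.74 in the set and -0.15 over all genes, and 6 of the 7 had ratios below 1. With the combination, 8 passed; 1 was called higher (RDH12; 9.86% of all genes) and 3 lower (STRA6, CYP26A1 and CYP26B1; 32.9% of all genes), with medians of -0.60 and -0.64. The 3 comparisons share the vehicle library. With background scaling the GSK-126 counts became 0 higher and 4 lower (STRA6, CYP26A1, RBP4 and DHRS3), against 7.25% and 68.6% of all genes. Those of the combination became 0 higher and 5 lower (STRA6, CYP26A1, CYP26B1, RBP4 and DHRS3), against 5.13% and 69.2%. When peaks with a score under 20 were left out, 0 members were called lower with fenretinide, since STRA6 came to 0.505 and CYP26A1 to 0.503.

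**Figure D2:**
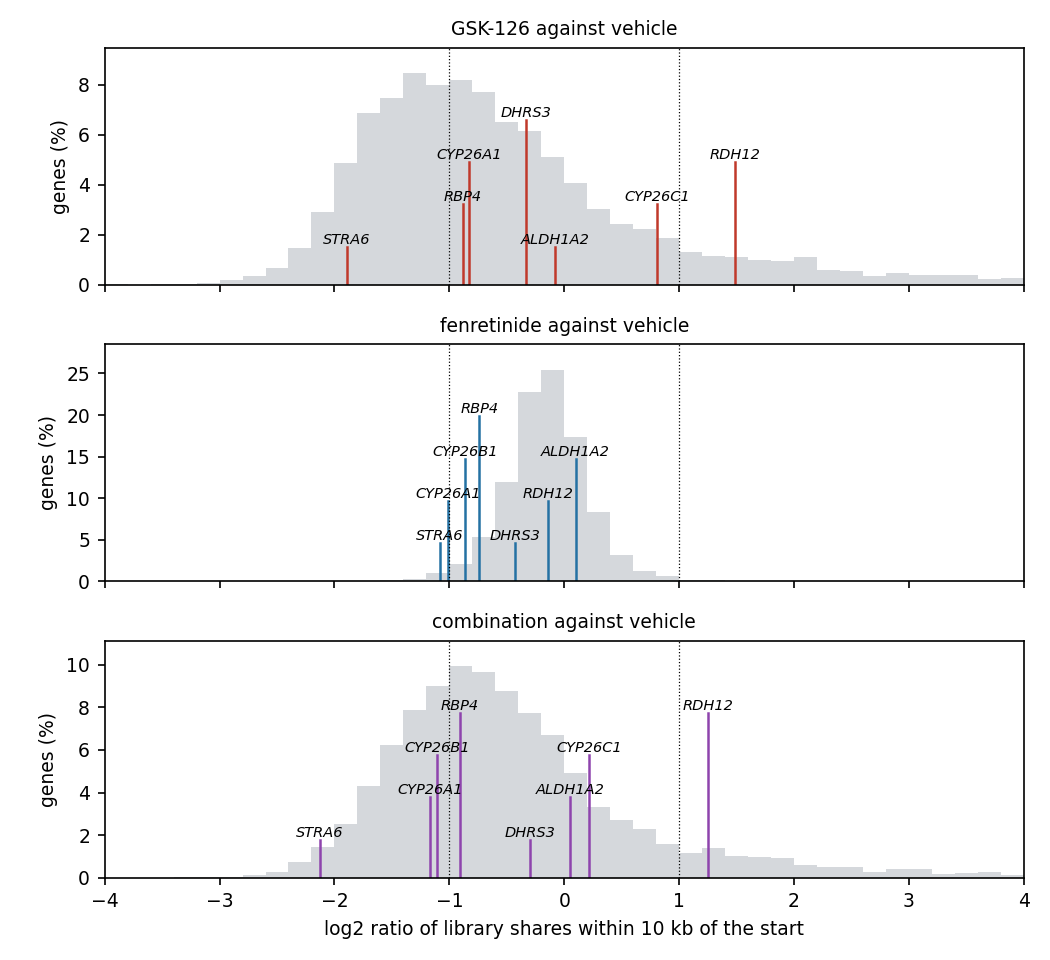
Distribution of log2 ratios of library share against vehicle over all genes tested within 10 kb (grey bars, percent of genes), with each member that passed the minimum of fragments as a labelled line whose height carries no value, and dotted lines at a ratio of 0.5 and 2. Most members sit on the left side of the narrow fenretinide distribution (set median -0.74, all genes -0.15), and RDH12 sits far right with GSK-126 and the combination.

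RBP4 encodes the plasma carrier of retinol. Within 10 kb it had 159 fragments in vehicle, 81 under GSK-126, 105 under fenretinide and 78 in the combination, so vehicle was highest and the GSK-126 and combination libraries were lowest. The ratios to vehicle were 0.540 (0.408 to 0.710), 0.598 (0.463 to 0.770) and 0.532 (0.400 to 0.701), all below 1 beyond counting error and none past the rule. Almost all of this came from an 8.03 kb interval over the start, chr10:93598976-93607008, with 146, 72, 98 and 74 fragments in the same order. An interval of 7.1 kb beyond the gene's 3′ end, shared with FFAR4, did not fall with GSK-126: it had 64, 70, 53 and 59 fragments, and ratios of 1.16 (0.815 to 1.65), 0.750 (0.511 to 1.10) and 0.999 (0.689 to 1.45). With GSK-126 the counting intervals at the start (0.523, 0.389 to 0.698) and at this flank did not overlap, while under fenretinide they did.

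STRA6, the receptor through which cells take up retinol from RBP4, had the lowest GSK-126 ratio of the members that passed the minimum within 10 kb. Its 3 intervals there held 92 fragments in vehicle, 23 under GSK-126, 48 under fenretinide and 19 in the combination. Vehicle was highest, fenretinide intermediate and the 2 libraries with GSK-126 lowest. The ratios were 0.265 (0.160 to 0.422), 0.472 (0.326 to 0.677) and 0.224 (0.129 to 0.370), each called lower. All 3 intervals held a vehicle peak. Only chr15:74204197-74206289 held a peak in the 2 libraries with GSK-126, and only chr15:74198112-74200302 held a fenretinide peak. These falls are therefore partly fixed by where peaks were called. The combination was at 0.474 (0.263 to 0.821) of fenretinide alone, also called lower, and at 0.844 (0.435 to 1.62) of GSK-126 alone, where the 42 fragments were under the minimum.

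The deposited distances for STRA6 were measured from a start inside the RefSeq gene, so intervals at its outermost RefSeq start carry another gene name, LOC102723673, and those at its 3′ end carry ISLR. Over the whole gene with 5 kb flanks, 10 intervals held 802, 215, 618 and 206 fragments in vehicle, GSK-126, fenretinide and the combination. The GSK-126 and combination ratios were as low as near the start, 0.284 (0.243 to 0.331) and 0.278 (0.238 to 0.325). The fenretinide ratio was 0.697 (0.627 to 0.776) and was not called. At chr15:74207807-74209919, which covers the window shown, the fenretinide library held 18 fragments against 33 in vehicle (0.494, 0.262 to 0.903). The 20.8 kb interval upstream, chr15:74214939-74235749, held 338 against 386 (0.793, 0.683 to 0.920), with a counting interval that overlaps the former. With GSK-126 the same 2 intervals held 8 and 105 fragments, ratios of 0.257 (0.103 to 0.568) and 0.288 (0.230 to 0.359). Of these 2, only the upstream interval held GSK-126 peaks, so the fall at the other is partly fixed.

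CRABP2, the carrier that hands retinoic acid to its nuclear receptors, had only 19, 3, 16 and 4 fragments within 10 kb in vehicle, GSK-126, fenretinide and the combination, under the minimum in every comparison. An 11.1 kb interval over its 3′ part and flank, chr1:156691666-156702793, shared with NES at greater distance, held 166, 34, 150 and 59. There the vehicle and fenretinide libraries were high and the other 2 low. Over the gene span with flanks the ratios were 0.212 (0.145 to 0.303) with GSK-126 and 0.369 (0.273 to 0.494) with the combination, both called lower, and 0.812 (0.655 to 1.01) with fenretinide. The combination library was 1.74 times (1.14 to 2.69) the GSK-126 library, a difference beyond counting error that was not called.

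**Figure D3:**
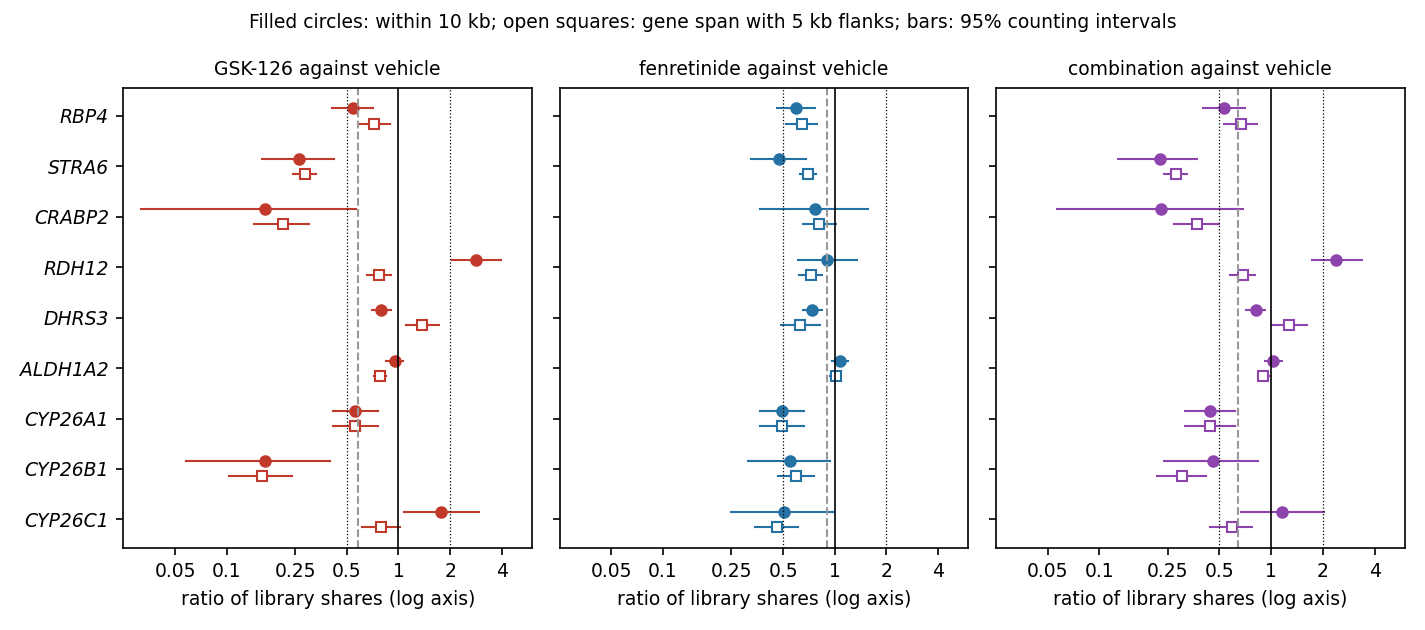
Ratio of library share against vehicle on a log axis for the 9 members, in 3 panels for GSK-126, fenretinide and the combination, within 10 kb (filled circles) and over the gene span with 5 kb flanks (open squares), with 95% counting intervals as bars. Dotted lines mark 0.5 and 2, the dashed line the median gene (0.579, 0.900 and 0.640); RDH12 and CYP26C1 lie above 1 with GSK-126 near the start (2.83 and 1.77) and below 1 over the span (0.771 and 0.794).

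RDH12, a retinol and retinal oxidoreductase best known from photoreceptors, was the 1 member called higher within 10 kb. Its interval in intron 1, chr14:67707605-67716641, had 54 fragments in vehicle, 144 under GSK-126, 54 under fenretinide and 119 in the combination. The 2 libraries with GSK-126 were high and the other 2 equal and low. The ratios were 2.83 (2.05 to 3.94) under GSK-126, 0.905 (0.609 to 1.35) under fenretinide and 2.39 (1.72 to 3.36) in the combination, which was also at 2.64 (1.90 to 3.71) of fenretinide alone.

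A second interval over the rest of RDH12, chr14:67719501-67733496, moved the other way. Both intervals are shared with LOC102723898. It held 323, 130, 248 and 119 fragments, ratios of 0.427 (0.345 to 0.525), 0.695 (0.587 to 0.823) and 0.399 (0.321 to 0.494). In vehicle most of the gene's mark lay in this interval, and in the 2 libraries with GSK-126 the fragments were split nearly equally between both. Summed over the gene span, the direction turned: 377, 274, 302 and 238 fragments gave 0.771 (0.657 to 0.903), 0.725 (0.621 to 0.846) and 0.684 (0.579 to 0.807). The rise in intron 1 also lost its call with background scaling, at 1.66 for GSK-126 and 1.36 for the combination.

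**Figure D4:**
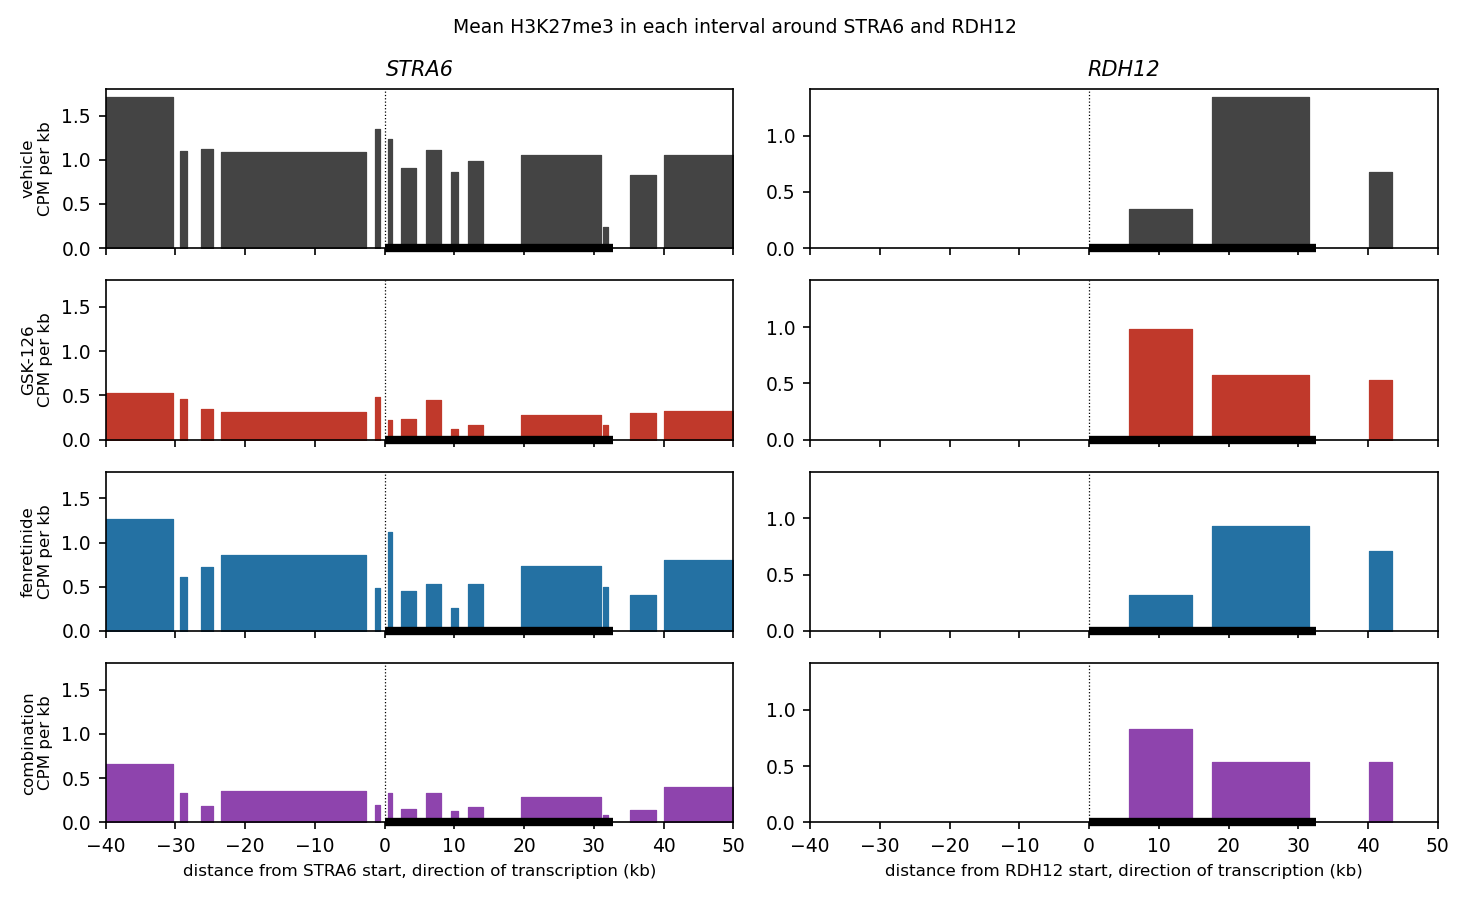
Mean H3K27me3 of each consensus interval (y axis, CPM per kb, scaled to each library's interval fragments) against distance from the start of STRA6 (left) and RDH12 (right) in kb, with 1 row per library; the black bar is the RefSeq gene, and gaps are stretches with no interval. The STRA6 intervals described above are lower in the 2 libraries with GSK-126 than in vehicle, while at RDH12 the interval in intron 1 is higher and the one over the rest of the gene lower.

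DHRS3 encodes a retinal reductase, which turns retinal back into retinol, and is a known retinoic acid target. Within 10 kb it had 552 fragments in vehicle, 414 under GSK-126, 452 under fenretinide and 414 in the combination, and vehicle was highest. The ratios were 0.795 (0.698 to 0.905), 0.741 (0.653 to 0.841) and 0.813 (0.714 to 0.925), all below 1 beyond counting error and none called. Most of these fragments lay in a 30.4 kb interval that starts 5.87 kb upstream of the gene, is shared with AADACL4 and held 541, 411, 442 and 409. None of the 3 DHRS3 promoter windows lay in an interval.

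Over DHRS3 and its 5 kb flanks the fragments were fewer. The 7 intervals of the span held 142, 184, 99 and 167 fragments, ratios of 1.37 (1.10 to 1.72) under GSK-126, 0.631 (0.483 to 0.821) under fenretinide and 1.27 (1.01 to 1.61) in the combination. The combination was at 2.02 (1.57 to 2.62) of fenretinide alone, called higher. Most of these fragments lay in 1 interval beyond the 3′ end of the gene, chr1:12556609-12567012, which the deposited annotation names MIR6730 and which held 103, 156, 80 and 140. The other 6 intervals, set apart after the values were seen, held 39, 28, 19 and 27 fragments. Without the flank interval the GSK-126 ratio was 0.761 (0.451 to 1.27), the fenretinide ratio 0.441 (0.241 to 0.782) and the combination ratio 0.750 (0.442 to 1.26). The combination was then at 1.70 (0.911 to 3.24) of fenretinide, which was not called, so the rises over the span rest on an interval outside the gene.

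ALDH1A2, the retinaldehyde dehydrogenase that makes retinoic acid in the embryo, had one of the highest levels of the set. Within 10 kb it had 626 fragments in vehicle, 560 under GSK-126, 740 under fenretinide and 597 in the combination. The deposited distances were measured from a start inside the gene, so these intervals lay 32.1 to 68.6 kb downstream of the outermost RefSeq start. The interval over that start was not among them. The ratios were 0.949 (0.845 to 1.06), 1.07 (0.961 to 1.19) and 1.03 (0.922 to 1.16), each with an interval that includes 1. This sum joined intervals that differed, and the ratio depended on which were counted. With peaks up to 2 kb from a start the GSK-126 ratio was 0.328 (55 fragments), and with intervals at least 50% covered by peaks of the gene 0.348 (89 fragments), both called lower. The combination was at 0.516 and, called lower, 0.469 by the same 2 definitions. None of the intervals these definitions kept had a GSK-126 peak, so their falls with GSK-126 are partly fixed by that. Background scaling gave 0.558 for GSK-126 and 0.588 for the combination, neither called. A 12.3 kb interval in intron 1, chr15:58021345-58033650, held 365, 422, 450 and 436 fragments, a GSK-126 ratio of 1.23 (1.06 to 1.41). The neighbouring 2.04 kb interval at an internal start, chr15:58011954-58013992, held 42, 13, 42 and 20. Its GSK-126 ratio of 0.328 (0.162 to 0.623) was called lower, in an interval without a GSK-126 peak. The 9.0 kb interval over the outermost start, which covers the window shown, held 109, 78, 113 and 68, with ratios of 0.759 (0.560 to 1.02), 0.938 (0.715 to 1.23) and 0.676 (0.492 to 0.923). Over the full gene span of 28 intervals the ratios were 0.782 (0.724 to 0.845), 1.01 (0.943 to 1.08) and 0.902 (0.837 to 0.972).

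ALDH1A3, a related enzyme that also makes retinoic acid, had no consensus interval within its gene or 5 kb flanks, and so no value. In the absence of an interval its count was not measured, and its promoter window had a CpG ratio of 0.92.

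CYP26A1, the main inducible enzyme that hydroxylates retinoic acid for removal, had its lowest shares in the 3 treated libraries alike. Within 10 kb it had 132 fragments in vehicle, 70 under GSK-126, 72 under fenretinide and 54 in the combination, so vehicle stood above all 3. The ratios were 0.562 (0.415 to 0.757), 0.494 (0.365 to 0.663) and 0.443 (0.317 to 0.613), the last 2 called lower. The combination was at 0.788 (0.542 to 1.14) of GSK-126 alone and 0.898 (0.619 to 1.30) of fenretinide alone, intervals that include 1. At the interval over the start, chr10:93071484-93076905, which holds both promoter windows and the repeat shown above, the libraries had 96, 41, 48 and 36 fragments. There GSK-126 and fenretinide gave the same ratio, 0.453 (0.306 to 0.659 and 0.313 to 0.646), and the combination 0.406 (0.269 to 0.602), all called lower. This interval held no GSK-126 peak, so its fall in that library is partly fixed. The neighbouring chr10:93068404-93070529 held no peak in the fenretinide and combination libraries.

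Away from the start the CYP26A1 neighbourhood held intervals that moved both ways. Its 28 intervals beyond 10 kb, which reached 206 kb downstream, held 2269, 1793, 2105 and 1798 fragments, and the ratios were 0.838 (0.787 to 0.892), 0.840 (0.791 to 0.891) and 0.859 (0.807 to 0.914). Of the 24 that passed the minimum with GSK-126, 3 were called higher and 5 lower, and with the combination 2 and 3 of 21, while with fenretinide 0 of 23 were called. Over all intervals with GSK-126 the shares were 25.9% higher and 21.6% lower, with the combination 24.1% and 15.8%, and with fenretinide 3.31% and 2.16%. Movement both ways is therefore not particular to this neighbourhood. With distances up to 50 kb included, the GSK-126 ratio was 1.09, the fenretinide ratio 0.825 and the combination ratio 1.02, and no call remained. An interval 28.0 to 29.8 kb downstream, chr10:93101437-93103290, rose from 10 fragments in vehicle to 34 with GSK-126 (ratio 3.61), and was named after its values were seen. It held peaks only in the GSK-126 and combination libraries, so its rise is partly fixed by that. Genes with the most similar trio of log2 ratios against vehicle, out of 14701 compared, were CXXC11 (Euclidean distance 0.0761), DOK7 (0.0863) and CHST12 (0.172), and 125 genes lay within 0.5. For STRA6 they were LOC149950 (0.0939), LOC101928548 (0.109) and PIK3CD (0.129), with 205 genes within 0.5, and for RDH12 LOC441455 (0.0843), ZNF736 (0.0919) and FAM186B (0.0924), with 297.

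CYP26C1, a related enzyme, starts 12.7 kb upstream of CYP26A1 on the same strand. Within 10 kb it had 27 fragments in vehicle, 45 under GSK-126, 15 under fenretinide and 29 in the combination, few in every library. GSK-126 was highest and fenretinide lowest, with ratios of 1.77 (1.07 to 2.96) and 1.16 (0.665 to 2.04) for GSK-126 and the combination, neither called. The 42 fragments of vehicle and fenretinide together were under the minimum (0.503, 0.249 to 0.980). Its longest interval, chr10:93065074-93067896, had 23, 28, 10 and 26 fragments, of which the fenretinide ratio of 0.394 (0.167 to 0.860) was called lower. Over the gene span, which includes both nearest CYP26A1 intervals, the libraries held 147, 110, 75 and 80 fragments, and fenretinide was called lower at 0.462 (0.345 to 0.614). In the 3 consecutive intervals from that one to the start of CYP26A1, fenretinide was called lower in each and GSK-126 in the last. At an interval -86.2 to -84.6 kb from its start, CYP26C1 had 3, 33, 2 and 21 fragments, high in the 2 libraries with GSK-126.

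CYP26B1, the family member that clears retinoic acid in many embryonic tissues, had the lowest GSK-126 ratio of the set over its gene span. The interval over its RefSeq start, chr2:72146578-72148166, held 38 fragments in vehicle, 6 under GSK-126, 23 under fenretinide and 16 in the combination, and the deposited annotation places the centre of the vehicle peak there at -2891 bases from a different start. GSK-126 was lowest and the combination and fenretinide lay between it and vehicle. The ratios were 0.167 (0.0579 to 0.399), 0.548 (0.312 to 0.943) and 0.456 (0.237 to 0.838). For the gene, GSK-126 missed the minimum with 44 fragments, and the combination was called lower. An 8.05 kb interval upstream, chr2:72151270-72159324, had 131, 19, 95 and 30 fragments, ratios of 0.154 (0.0897 to 0.25), 0.656 (0.499 to 0.861) and 0.248 (0.161 to 0.371). Over the gene span with flanks, 179, 27, 118 and 50 fragments gave 0.160 (0.103 to 0.241), 0.597 (0.469 to 0.757) and 0.303 (0.217 to 0.416). No interval of the span held a GSK-126 peak, and the upstream interval held no combination peak. The falls in these 2 libraries are therefore partly fixed over the span as well. The combination held 1.89 times (1.16 to 3.14) the share of GSK-126 alone over the span, which was not called.

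The 52 CYP26B1 intervals beyond 10 kb, which included that upstream interval, held 3869, 3224, 3761 and 3213 fragments, and the 3 ratios were 0.884 (0.843 to 0.926), 0.880 (0.841 to 0.920) and 0.900 (0.858 to 0.943). These sums joined intervals that moved in opposite directions. With GSK-126, 7 of the 33 that passed the minimum were called higher and 6 lower, with the combination 5 and 7 of 30, and with fenretinide 2 and 2 of 32. Movement both ways was common over all intervals. There 25.9% were higher and 21.6% lower with GSK-126, 24.1% and 15.8% with the combination, and 3.31% and 2.16% with fenretinide. The interval at chr2:72403838-72409874, named after its values were seen, went from 36 fragments in vehicle to 173 with GSK-126 (5.10, 3.54 to 7.52) and 153 with the combination, and that at chr2:71987453-71994434 from 96 to 37 with GSK-126 (0.409). The spread of these 3 breakdown genes shows in the plot of intervals around CYP26A1 and CYP26B1.

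**Figure D5:**
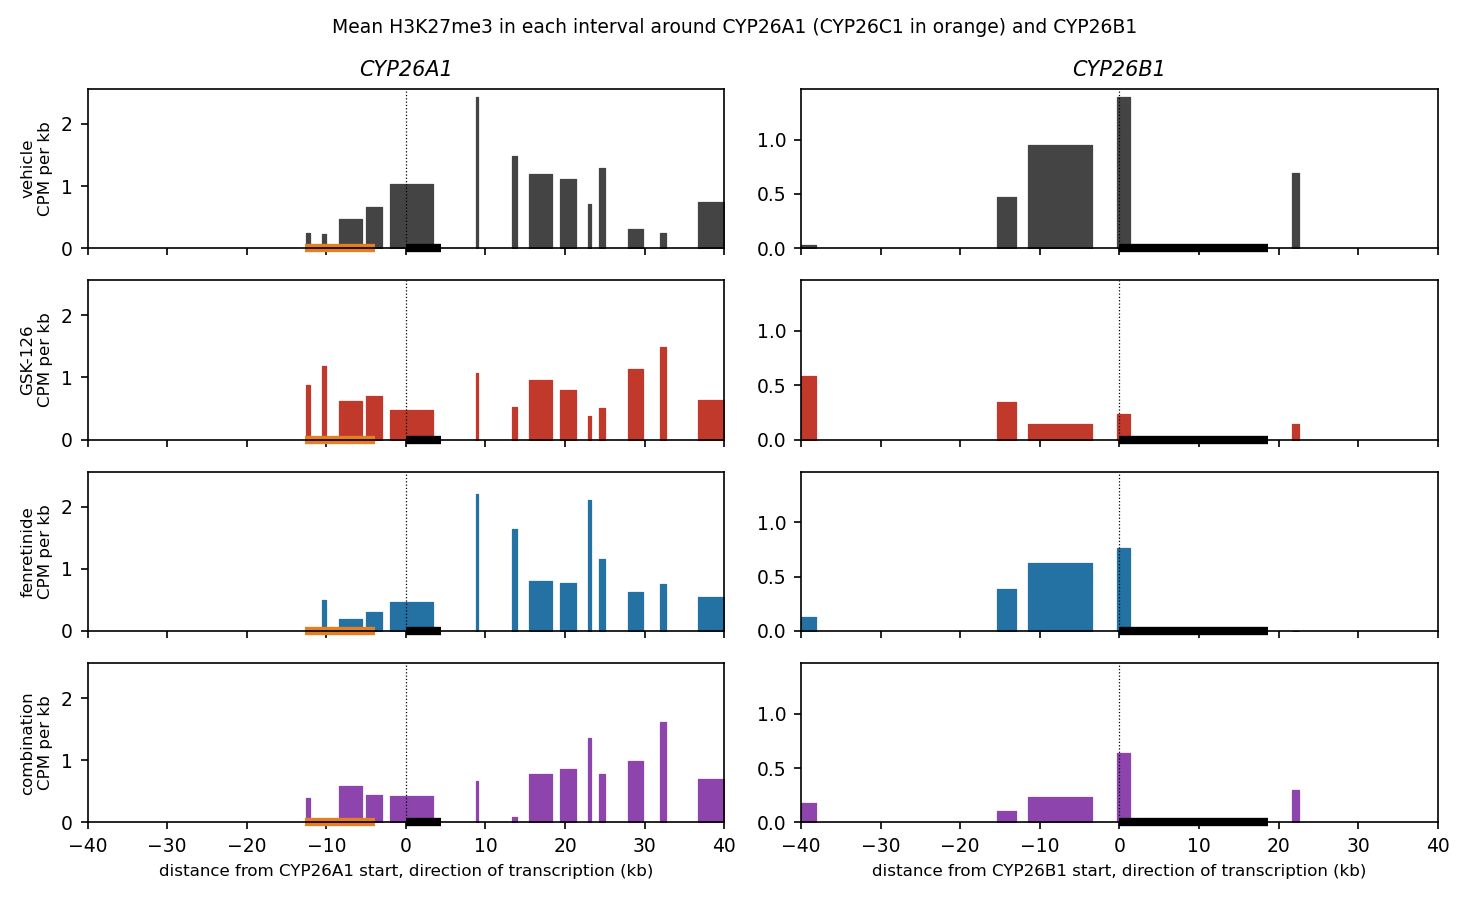
Mean H3K27me3 of each consensus interval (y axis, CPM per kb, scaled to each library's interval fragments) against distance in kb from the start of CYP26A1 (left; black bar, with CYP26C1 in orange) and CYP26B1 (right), with 1 row per library; a gap in all rows holds no interval, and a gap in 1 row where others show a bar is a count of 0. The interval over the CYP26A1 start is lower than vehicle in all 3 treated libraries (96 fragments against 36 to 48), and the interval over the CYP26B1 start and the 8.05 kb interval upstream of it are lowest with GSK-126.

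Both wider definitions were set beside the 10 kb values. Over gene spans with 5 kb flanks, 9 members passed the minimum. With GSK-126, 0 were called higher and 3 lower (CYP26B1, STRA6 and CRABP2), where 18.2% and 30.7% of all gene spans were. With fenretinide, 0 were higher and 2 lower (CYP26A1 and CYP26C1, which share intervals), against 0.611% and 0.982%. With the combination, 0 were higher and 4 lower (CYP26A1, CYP26B1, STRA6 and CRABP2), against 16.5% and 23% of spans. For the combination against fenretinide, DHRS3 was called higher (14.6% of spans), through the flank interval described above, and STRA6 and CRABP2 lower (12.2%). The set medians against vehicle were -0.48, -0.64 and -0.76, beside -0.46, -0.08 and -0.38 over all spans. With peaks at any distance, RDH12 and CYP26C1 were called higher (16.2% of genes) and STRA6 and CRABP2 lower (29.6%) with GSK-126. With fenretinide 0 of 8 members were called, against 0.486% higher and 0.791% lower. With the combination RDH12 was called higher (14.7%) and STRA6 and CRABP2 lower (22.1%).

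Interval by interval, 24 intervals within 10 kb belonged to members. With GSK-126, 14 passed the minimum, of which 1 was called higher and 6 lower, where 25.9% and 21.6% of all intervals were. Of these 6, only chr15:74204197-74206289 at STRA6 held a GSK-126 peak, so the other falls are partly fixed by where peaks were called. With fenretinide, 16 passed, 0 higher and 5 lower, against 3.31% and 2.16%. These 5 were neighbouring intervals at CYP26C1 and CYP26A1 and at STRA6, so they do not count as 5 separate genes. Among them only chr10:93071484-93076905 at CYP26A1 held a fenretinide peak, so the other falls are partly fixed too. With the combination, 13 passed, 1 higher and 4 lower, against 24.1% and 15.8%. All intervals include those beyond 10 kb of a start, so they are an unlike set. Of all genes by their intervals within 10 kb, 11.5% were higher and 41.4% lower with GSK-126. The shares were 0.337% and 1.5% with fenretinide, and 9.86% and 32.9% with the combination. The deposited lists held 17 member peaks within 10 kb in vehicle, 8 under GSK-126, 9 under fenretinide and 10 in the combination, and at any distance 132, 110, 120 and 126. Peaks were called in each library separately, and total peaks ran from 212277 in vehicle to 274393 with the combination. These totals are of peaks at any distance. All peaks within 10 kb of a start were not counted by library, so whether the members differ from them was not tested.

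The combination was also set against each compound alone. Against GSK-126, 6 members passed the minimum and 0 were called, where 0.443% of all genes were called higher and 0.501% lower; the member log2 ratios ran from -0.59 (CYP26C1) to 0.12 (ALDH1A2). Against fenretinide, 6 passed, RDH12 was called higher (9.43% of all genes) and STRA6 lower (18.7%), and the set median was -0.10 beside -0.49 over all genes. At STRA6 and RDH12 the combination was within counting error of GSK-126 (0.844 at each) and beyond it of fenretinide (0.474 and 2.64). At CYP26A1 and RBP4 it was within counting error of each compound alone.

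The rest of the pathway was taken from lists of 49 other genes, of which 36 had an interval within 10 kb. With GSK-126, 28 passed the minimum, 1 was called higher and 11 lower, with a median log2 ratio of -0.76, beside 11.5%, 41.4% and -0.79 over all genes tested. With fenretinide, 0 of 30 were called in either direction and the median was -0.03, beside 0.337% higher, 1.5% lower and -0.15 over all genes. With the combination, 1 of 28 was called higher and 8 lower, with a median of -0.55, beside 9.86%, 32.9% and -0.64. The lists and the members were both chosen with earlier results of these data known, so the contrast with the 2 of 7 members lower with fenretinide is a description.

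The counts with GSK-126 in each list below stand beside the 41.4% of all genes called lower and 11.5% called higher, and show nothing particular to these lists. Among other carriers 2 of 7 were called lower. CRABP1, a cytoplasmic retinoic acid carrier, went from 363 fragments in vehicle to 92 (0.269, 0.211 to 0.339), and RLBP1, a retinal carrier of the eye, from 182 to 51 (0.297, 0.213 to 0.407). Of 13 dehydrogenases and reductases that act on retinol or retinal, 4 were lower and 1 higher. RDH13 fell from 240 to 38 fragments (0.168, 0.116 to 0.237) and RDH8 from 3044 to 1009 (0.352, 0.327 to 0.378), while DHRS4, which lies beside near-identical copies and is therefore uncertain, rose from 89 to 372 (4.43, 3.51 to 5.65). Both enzymes for retinoic acid synthesis that passed the minimum fell: ALDH1A1 from 583 to 251 (0.457, 0.392 to 0.530) and CYP1B1 from 317 to 135 (0.452, 0.366 to 0.554).

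Of 3 storage and cleavage genes that passed, 2 were called lower with GSK-126. BCO1, which cleaves beta-carotene to retinal, went from 1052 to 351 fragments (0.354, 0.313 to 0.400), and LRAT, which esterifies retinol, from 64 to 26 (0.431, 0.262 to 0.689). Of 3 nuclear receptor genes, RARG was called lower, from 344 to 69 (0.213, 0.162 to 0.276). None of these 10 genes was called with fenretinide alone, where their fragments in the fenretinide library ranged from 75 (LRAT) to 2661 (RDH8).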

How the data were processed

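The 4 ChIP libraries of H3K27me3 in T24 cells were used, 1 per condition, grouped by the labels. The authors deposited whole-number fragment counts for 273664 consensus intervals, made with featureCounts 2.0.1, per the file headers, where a fragment that touches several intervals is counted in each. The deposited peak lists give a peak score of no stated scale and, with HOMER, per the file headers, a gene name and a distance to the nearest transcription start. MACS2 2.1.0 and the build hg38 come from the submitters' processing notes. The aligner and the control for peak calling are not given in the sources used here. Peaks were called per library, so an interval exists only where some library had a peak.

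A gene's value is the sum over intervals holding one of its peaks within 10 kb, and intervals with peaks of more than 1 gene enter each sum. Gene spans were RefSeq spans with 5 kb flanks. Log2 ratios used a pseudocount of 0.5. The 5 comparisons were made without p-values, since each condition had 1 library. Alternatives were TMM factors from edgeR 4.0.16 and size factors from DESeq2 1.42.0 (both for scaling only), background scaling (library totals taken from the quartile of intervals with the least signal per kb, all libraries summed), other distances, minimums, ratios, peak scores and overlaps, and gene spans. The calling rule was tested on simulated Poisson counts, with fold changes set in genes with at least 100 fragments in the reference library. That simulation holds counting error only, so it says nothing about variation between libraries or about changes in genes with fewer fragments.

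Named genes were all members, genes sharing an interval with one, the 3 genes most alike CYP26A1, STRA6 and RDH12 by the Euclidean distance of log2 ratios among genes with at least 100 fragments, and up to 2 called genes per direction from each pathway list. The members and lists were chosen with earlier results of these data known. Software was R 4.3.3 and Python 3.11.15 with matplotlib 3.10.9, scipy 1.17.1, pandas 2.3.3 and numpy 2.4.6. The 4 input and 4 RNA libraries were not analysed here.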

Additional observations from a re-analysis of the deposited data

Results flagged for a closer look

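CYP26B1 was the 1 member whose fenretinide effect had opposite directions without and with GSK-126, each beyond counting error within 10 kb. Against vehicle the fenretinide ratio was 0.548, and the combination against GSK-126 was at 2.72 (1.01 to 8.50), a difference of 2.23 on the log2 scale. It rests on 38, 6, 23 and 16 fragments in vehicle, GSK-126, fenretinide and the combination, so the 2.72 comes from 22 fragments, under the minimum for a call. With DESeq2 factors it was 2.49 (0.927 to 7.78), with TMM factors 2.52 (0.938 to 7.87) and with background scaling 2.64 (0.980 to 8.23), each including 1. The difference was not tested, since each condition had 1 library. Over the gene span the same ratios were 0.597 and 1.89 (1.16 to 3.14).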

How the results depend on the processing

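No paired analysis was possible because each condition had 1 library. Of 375 member ratios recomputed under the 9 alternatives that can move a ratio, 309 moved by less than their counting interval, 62 moved by more, and 4 changed direction after a call: over the gene span RDH12 came to -0.37 with GSK-126, -0.55 with the combination and, against fenretinide, -0.08 (log2), and with distances up to 50 kb CYP26A1 came to 0.02 with the combination. The number of members called with GSK-126 was 2, and 4 with background scaling, with distances up to 50 kb, at any distance and with no minimum of fragments, and 5 at a ratio of 1.5. With fenretinide it was 2, and 0 up to 50 kb, at any distance and with peak scores of at least 20, and 4 at a ratio of 1.5. With the combination it was 4, and 2 up to 2 kb; with background scaling it was 5, of which 0 higher. For the combination against GSK-126 it was 0, and 1 with no minimum. Against fenretinide it was 2, and 1 with background scaling or a minimum of 100 fragments, 0 up to 2 kb, and 4 at any distance or with no minimum. For most of these settings the share of all genes called was not computed. The counts therefore describe the members only and do not set them apart from other genes. DESeq2 and TMM factors moved none of the 45 ratios each past its counting interval. The cause was not tested, beyond what each alternative adds or removes. Depth limits CRABP2, CYP26C1 and CYP26B1 most, with 19, 27 and 38 fragments in vehicle within 10 kb.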
